A study of Mus musculus with 20 samples.

Results

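The 36 genes described here encode secreted Wnt ligands (19 Wnt genes), their Frizzled receptors (10 Fzd genes) and secreted inhibitors of the pathway (4 Sfrp and 3 Dkk genes). They were chosen by name from 21887 protein-coding genes on the numbered mouse chromosomes, X and Y, and were placed by their mm10 positions. All 36 were found. A gene was counted as carrying a histone mark where at least 1 bp of a deposited peak lay over the gene or within 1 kb of its ends. A site of the transcription factor HEB was counted as near a gene within 100 kb.

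Wnt ligands are lipid-modified proteins that signal to the producing cell or to close neighbours. They bind the cysteine-rich domain of a Frizzled receptor together with an Lrp5 or Lrp6 co-receptor, and in the canonical branch β-catenin is then stabilised and acts with Tcf and Lef factors on target genes. Secreted frizzled-related proteins (Sfrp) carry a Frizzled-like domain that binds ligands, and Dickkopf proteins (Dkk) mostly act on the co-receptors. In the mammary gland the pathway is known for its part in bud formation, ductal branching and the maintenance of basal stem cells, and the Wnt1 and Wnt3 genes were found as integration sites of mouse mammary tumour virus. H3K4me3 is a mark of gene starts, H3K27ac of active promoters and enhancers, and H3K27me3 of silencing by Polycomb complexes. Promoters that carry H3K4me3 and H3K27me3 together are called bivalent.

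Chromatin immunoprecipitation followed by sequencing had been done in Comma-Dβ cells, an immortalised mouse mammary epithelial line, at passage 28. The 20 samples fell into 5 groups of 4, made with antibodies to HEB (the E protein encoded by Tcf12), H3K4me3, H3K27ac and H3K27me3, and from input chromatin. All groups came from the same untreated line, grown in DMEM/F12 medium with serum, HEPES, insulin and epidermal growth factor, so no treatment or genotype was compared and the line stands as a single model of cultured epithelium. The data analysed were 4 combined peak lists, 1 per antibody, with no columns for replicates. No spread between replicates can therefore be given, no test was run, and read depth is unknown. A peak marks ChIP signal in a population of cells, and 2 marks on 1 gene can lie on the same or on different cells or alleles.

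The lists held 61496 H3K27ac, 17162 H3K4me3 and 114660 H3K27me3 peaks, with a median fold enrichment over control of 2.39 for H3K27ac, 12.9 for H3K4me3 and 1.74 for H3K27me3. They also held 956 HEB sites. Of the H3K27me3 peaks, 9.53% reached a −log10 q-value of 5, against 87.8% of the H3K4me3 peaks and 45.0% of the H3K27ac peaks. Fold enrichment and −log10 q are the authors' own values for each peak and are compared only within a list. Markers of cell types were counted in the same way. All 8 listed markers of basal and simple epithelium (Krt5, Krt14, Trp63, Itgb4, Krt8, Krt18, Epcam and Cdh1) carried H3K27ac and H3K4me3. Of the 8, 4 also carried H3K27me3, which covered 88.0% of Krt5 with its flanks. Among all protein-coding genes, 63.2% carried H3K27ac, 61.2% H3K4me3 and 37.5% H3K27me3. Of 4 markers of hormone-sensing luminal cells (Esr1, Pgr, Foxa1 and Prlr), 3 carried H3K27ac, 4 carried H3K4me3 and 4 carried H3K27me3. All 4 fibroblast markers (Col1a1, Col1a2, Pdgfra and Pdgfrb) carried H3K27ac and H3K4me3, and 1 carried H3K27me3. Counts of the active marks therefore do not tell epithelial from fibroblast markers here. Of 4 markers each, H3K27ac lay on 2 endothelial, 2 immune and 1 adipocyte gene. The part of other cell types in the values below was not tested.

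H3K27me3 lay on 3 of 10 receptors, 17 of 19 ligands and 6 of 7 inhibitors, and on 26 of the 36 genes together, against 37.5% of all protein-coding genes. H3K27ac lay on 7 receptors, 8 ligands and 4 inhibitors (19 genes together), against 63.2% of all protein-coding genes. H3K4me3 lay on 9 receptors, 14 ligands and 5 inhibitors (28 genes together), against 61.2% of all. The receptor share with H3K27me3 was thus close to that of all genes, while the ligand and inhibitor shares were above it.

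With only H3K27me3 peaks of −log10 q of 5 or more, 1 receptor, 15 ligands and 6 inhibitors kept the mark, 22 genes in all, against 19.5% of all protein-coding genes. With only H3K4me3 peaks above that list's median fold, 6 receptors, 2 ligands and none of the inhibitors kept H3K4me3. That is 8 genes in all, against 43.8% of all protein-coding genes. The 2 ligands were Wnt5b and Wnt7b, and the Wnt5b peak overlaps another gene, Fbxl14. Of the 14 ligands with H3K4me3, 12 therefore had it only in peaks at or below that list's median fold of 12.9. Receptor genes were also short, with a median length of 4.59 kb, against 22.9 kb for ligands, 9.65 kb for inhibitors and 17.2 kb for all protein-coding genes. The part of gene length was not tested. In windows of 1 kb around the gene ends alone, H3K27me3 lay on 3 receptors, 17 ligands and 6 inhibitors, against 32.3% of all genes. In the same windows H3K27ac lay on 7 receptors, 7 ligands and 3 inhibitors, against 53.4% of all, and H3K4me3 on 9 receptors, 13 ligands and 5 inhibitors, against 55.8%.

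A start on a known strand was at hand for 6 receptors, 15 ligands and 4 inhibitors, and for 17492 protein-coding genes. Within 1 kb of a start, H3K27me3 lay on 2 of these receptors, 14 ligands and 4 inhibitors, against 27.4% of all. H3K4me3 lay there on 5 receptors, 9 ligands and 2 inhibitors, against 57.8% of all. H3K27ac lay there on 4 receptors but on only 2 of the 15 ligands and 1 inhibitor, against 52.7% of all.

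**Figure D1:**
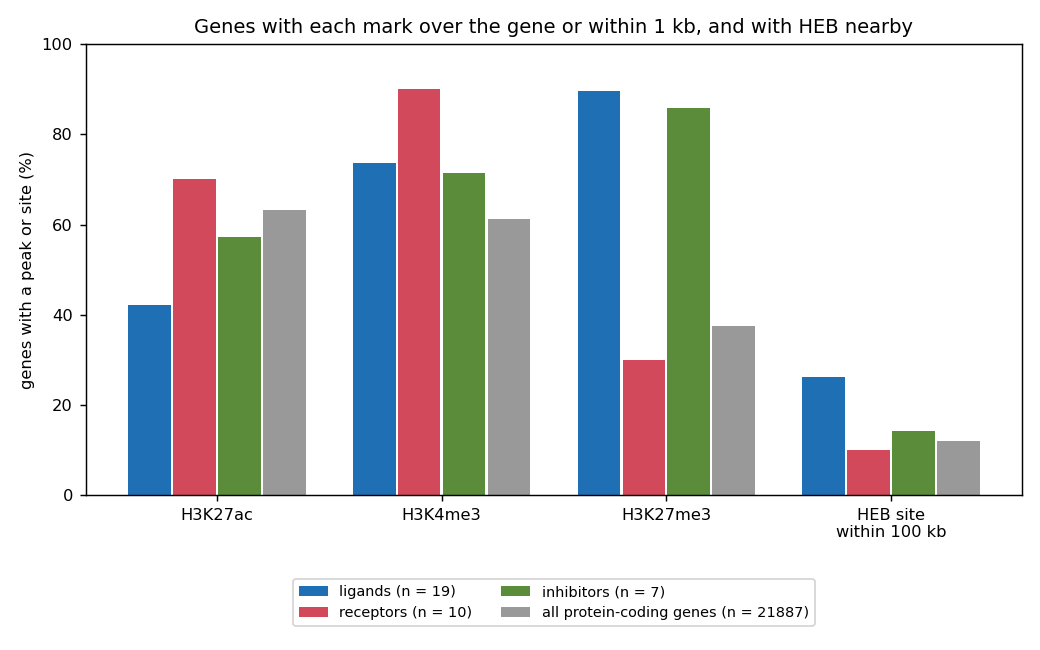
Percent of genes (y axis) with a peak of each mark over the gene or within 1 kb of its ends, and with a HEB site within 100 kb, for ligands (n = 19), receptors (n = 10), inhibitors (n = 7) and all protein-coding genes (n = 21887). H3K27me3 was on 89.5% of ligands and 85.7% of inhibitors but 30% of receptors, against 37.5% of all protein-coding genes.

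In combination, H3K27ac with H3K4me3 and no H3K27me3 was found on 7 of 10 receptors (Fzd1, Fzd2, Fzd4, Fzd5, Fzd6, Fzd7 and Fzd8), 1 ligand (Wnt9a) and 1 inhibitor (Dkk3), against 44.7% of all protein-coding genes. H3K4me3 with H3K27me3 and no H3K27ac was found on 2 receptors (Fzd3 and Fzd9), 6 ligands (Wnt1, Wnt2, Wnt3a, Wnt6, Wnt11 and Wnt16) and 1 inhibitor (Sfrp2), against 4.06% of all. No receptor had all 3 marks, which were found on 7 ligands (Wnt2b, Wnt4, Wnt5a, Wnt5b, Wnt7b, Wnt10a and Wnt10b) and 3 inhibitors (Sfrp1, Sfrp4 and Dkk2), against 11.5% of all. H3K27me3 alone was found on 1 receptor (Fzd10), 4 ligands (Wnt3, Wnt7a, Wnt8b and Wnt9b) and 2 inhibitors (Sfrp5 and Dkk1), against 17.9% of all. The remaining ligand, Wnt8a, had none of the marks, against 13.9% of all protein-coding genes. These groups account for all 36 genes.

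The promoters of 4 genes that differ in marks over the whole gene are printed. Fzd1 had the strongest H3K4me3 peak of any of the 36 genes. Wnt9a and Wnt3a are neighbours with different marks, and Dkk1 is an inhibitor under H3K27me3 alone. Over the printed bases themselves, Fzd1 had both active marks and Wnt9a had H3K4me3 alone. The printed Wnt3a and Dkk1 bases both had H3K27me3 alone, so these windows do not differ in marks. Each is the RefSeq sequence of assembly GRCm38.p6 from 250 bases before the gene start to 50 after it, 5′ to 3′ on the gene's strand. Capitals mark E-boxes, the letters CANNTG that E proteins such as HEB are known to bind, and the Dkk1 window holds none. The positions are chr5:4758167-4758466 on the minus strand for Fzd1, chr11:59306680-59306979 on the plus strand for Wnt9a, chr11:59290702-59291001 on the minus strand for Wnt3a, and chr19:30549447-30549746 on the minus strand for Dkk1.
Fzd1: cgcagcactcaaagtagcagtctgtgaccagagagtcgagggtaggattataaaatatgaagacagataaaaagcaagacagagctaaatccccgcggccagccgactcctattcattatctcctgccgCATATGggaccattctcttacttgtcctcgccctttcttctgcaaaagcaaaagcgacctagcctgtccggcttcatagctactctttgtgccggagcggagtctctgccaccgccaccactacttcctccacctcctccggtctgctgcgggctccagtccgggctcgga
Wnt9a: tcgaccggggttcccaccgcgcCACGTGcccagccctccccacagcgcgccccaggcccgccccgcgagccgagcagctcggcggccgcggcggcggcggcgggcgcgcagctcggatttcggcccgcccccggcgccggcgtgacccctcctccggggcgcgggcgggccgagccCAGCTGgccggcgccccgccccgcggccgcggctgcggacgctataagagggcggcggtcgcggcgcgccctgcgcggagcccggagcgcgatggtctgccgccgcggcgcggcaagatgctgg
Wnt3a: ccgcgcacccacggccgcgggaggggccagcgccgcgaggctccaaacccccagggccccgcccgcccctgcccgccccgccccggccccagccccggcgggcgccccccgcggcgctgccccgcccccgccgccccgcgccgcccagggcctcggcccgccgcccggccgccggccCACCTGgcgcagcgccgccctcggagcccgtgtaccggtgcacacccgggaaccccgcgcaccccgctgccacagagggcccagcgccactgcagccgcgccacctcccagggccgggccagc
Dkk1: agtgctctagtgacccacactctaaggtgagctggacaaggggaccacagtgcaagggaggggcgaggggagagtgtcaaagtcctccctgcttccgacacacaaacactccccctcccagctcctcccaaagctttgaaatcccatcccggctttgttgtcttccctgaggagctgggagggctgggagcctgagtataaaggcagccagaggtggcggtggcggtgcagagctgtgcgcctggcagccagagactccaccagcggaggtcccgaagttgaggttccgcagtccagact

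The Wnt3a window was 86.3% G and C and the Wnt9a window 83.3%, against 60.7% for Dkk1 and 54.0% for Fzd1. The observed over expected ratio of CpG was 0.86 for Wnt3a, 1.12 for Wnt9a, 0.33 for Dkk1 and 0.75 for Fzd1. These 4 genes were chosen for their marks, so whether GC content goes with a mark was not tested. An entry was at hand for 25 of the 36 genes, with 28 windows, and not for Wnt5a, Wnt7b, Wnt8a, Wnt10a, Fzd2, Fzd3, Fzd6, Fzd8, Sfrp1, Sfrp4 and Dkk3. Median GC content was 71.0% for ligands, 74.2% for receptors and 61.0% for inhibitors, against 56.3% for 21263 windows of all protein-coding genes. Median CpG ratios were 0.795 for ligands, 0.858 for receptors and 0.560 for inhibitors, against 0.567 for all.

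E-box letters were searched in the same windows, where CANNTG reads as itself on both strands and covers the other patterns named. CANNTG was in 14 of 18 ligand windows, 4 of 6 receptor windows and 1 of 4 inhibitor windows, and in 67.9% of the member windows together, against 69.0% of all windows. CAGCTG was in 7.14% of member windows, against 15.6% of all, and CAGGTG or CACCTG in 32.1%, against 19.7%. These letters are a description of the window and not sites of HEB.

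The highest fold of each active mark among the 36 genes was on a Frizzled gene. Across the 9 receptors with H3K4me3, the highest fold per gene had a median of 21.5 and a range of 3.83 to 27.1, against a median of 4.33 for the 14 marked ligands, 5.97 for the 5 marked inhibitors and 19.9 for all marked protein-coding genes. The highest H3K27ac fold had a median of 4.90 for receptors, 3.78 for ligands and 2.79 for inhibitors, against 4.41 for all. The receptor medians were near those of all marked genes, and the ligand and inhibitor medians were below them for both marks.

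Fzd7, a receptor for canonical ligands known from stem cells of several epithelia, lies at chr1:59482147-59486955. Both active marks covered the gene and its flanks whole. Its H3K27ac peak was 10.4 kb wide with a fold of 7.15 and a −log10 q of 55.1, and its H3K4me3 peak was 7.74 kb wide with a fold of 25.3 and a −log10 q of 497. These were the widest peaks of both marks on any receptor. Fzd1 (chr5:4753839-4758216), another canonical receptor, had the highest folds of any member: 8.28 for H3K27ac in a 2.57 kb peak and 27.1 for H3K4me3 in a 2.83 kb peak. The nearest H3K27me3 peak was 566 kb from Fzd1 and 24.6 kb from Fzd7.

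The other active receptors had H3K4me3 folds of 12.5 (Fzd2), 19.3 (Fzd4), 21.5 (Fzd5), 21.7 (Fzd6) and 22.2 (Fzd8). Their highest H3K27ac folds were 6.52 (Fzd2), 2.47 (Fzd4), 3.24 (Fzd5), 3.09 (Fzd6) and 4.90 (Fzd8). Fzd4, which also binds the non-Wnt ligand Norrin, therefore had a strong H3K4me3 peak beside the weakest H3K27ac of the 7. That H3K27ac peak had a −log10 q of 4.39, below 5. Both Fzd4 peaks overlap the end of Tmem135 and cannot be told apart from its chromatin. The nearest H3K27me3 peak lay 5.14 kb from Fzd4, 5.58 kb from Fzd2, 9.08 kb from Fzd5, 9.21 kb from Fzd6 and 292 kb from Fzd8.

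The 3 receptors with H3K27me3 had it in peaks that were narrow or of low −log10 q. Fzd3, known for planar cell polarity and axon guidance, is the longest Frizzled gene at 70.0 kb and had 16 H3K27me3 peaks, with a highest fold of 2.02 and a highest −log10 q of 4.26, and an H3K4me3 peak of fold 6.27. Fzd9 had a 1.03 kb H3K27me3 peak of fold 2.74 that shared 497 bp with a 1.30 kb H3K4me3 peak of fold 3.83. For Fzd9 the nearest H3K27ac peak was 1.08 kb away, just outside the window. Fzd10 had H3K27me3 alone, in a 0.701 kb peak of fold 1.64 and −log10 q of 1.62 that lay 0.475 kb beyond the gene.

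**Figure D2:**
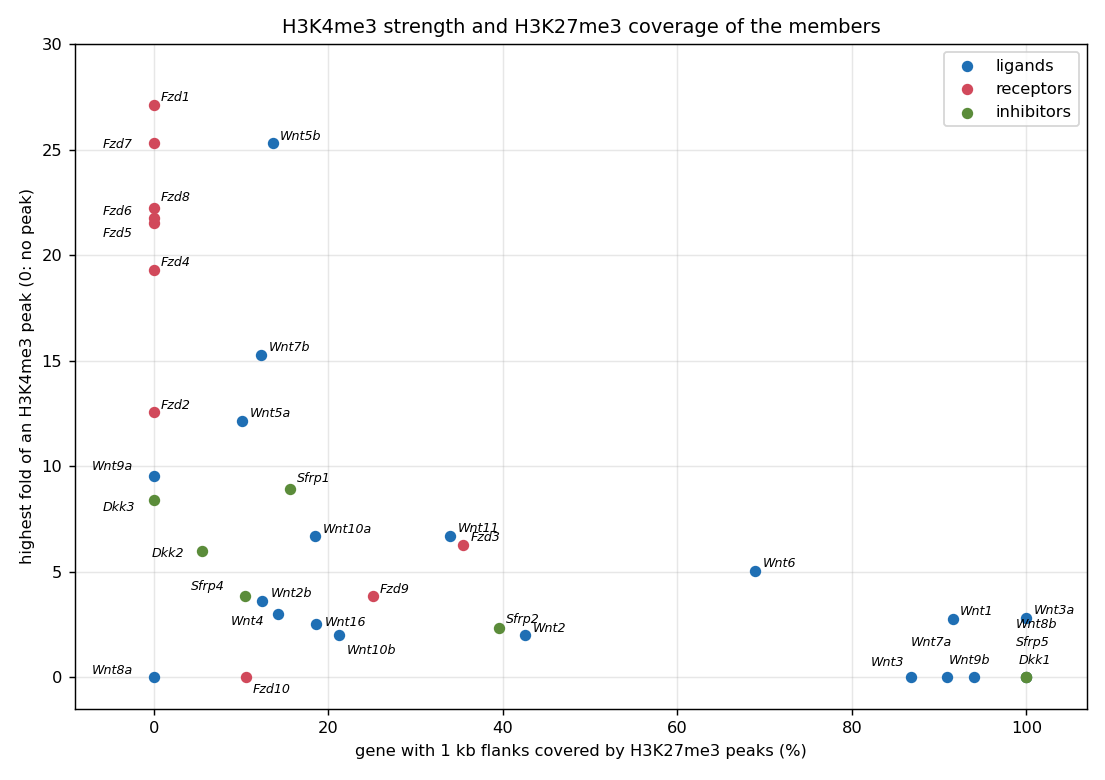
Highest H3K4me3 fold enrichment of each of the 36 genes (y axis, genes without a peak at 0) against the percent of the gene with 1 kb flanks covered by H3K27me3 (x axis), coloured by class. The 7 receptors with both active marks and no H3K27me3, at 0% coverage by that definition, have folds of 12.5 to 27.1. Wnt9a (9.54), Dkk3 (8.37) and Wnt8a (no peak) are also at 0%. Fzd3, Fzd9 and Fzd10 have coverage of 10.5% to 35.5% and folds of at most 6.27. The 9 genes covered over 50% by H3K27me3 have H3K4me3 folds of at most 5.04.

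H3K27me3 covered more of the median ligand than of the median receptor or inhibitor. The median ligand had 21.3% of its interval covered by H3K27me3, against 0% of the median receptor, 15.6% of the median inhibitor and 0% of the median protein-coding gene. Coverage was over 50% for 7 ligands (Wnt1, Wnt3, Wnt3a, Wnt6, Wnt7a, Wnt8b and Wnt9b) and 2 inhibitors (Sfrp5 and Dkk1), and for none of the receptors, against 15.2% of all protein-coding genes. The highest H3K27me3 fold per marked gene had a median of 3.02 for ligands and 2.78 for inhibitors, 2.02 for receptors and 2.12 for all marked genes. The widest peak per marked gene had a median of 7.80 kb for ligands, 8.93 kb for inhibitors and 1.03 kb for receptors, against 6.26 kb for all.

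Wnt1 (chr15:98789857-98793830), which is expressed in the embryonic midbrain and is not a normal product of the mammary gland, had the highest H3K27me3 fold of the 36 genes. Its 20.3 kb peak had a fold of 4.13 and a −log10 q of 33.3, covered 91.6% of the interval, and had a fold at or above 99.94% of the H3K27me3 list. The 2 H3K4me3 peaks on Wnt1 were 0.403 and 0.415 kb wide, with folds of 2.13 and 2.78. Strong H3K27me3 stood there beside H3K4me3 far below that list's median of 12.9.

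The widest H3K27me3 peak to reach any member lay over 1 end of Wnt7a (chr6:91363981-91411353), known for limb and reproductive tract patterning. It was 90.2 kb wide with a fold of 3.18, but 82.0 kb of it lay beyond the gene, and it did not reach the Wnt7a start. The start lay under a separate 35.4 kb peak. With a further peak of 16.7 kb, these peaks covered 90.9% of the interval. Wnt8b, a forebrain ligand, lay whole within a 45.7 kb peak of fold 3.17. Wnt3 (chr11:103774175-103818021) and Wnt9b (chr11:103727362-103775272), which overlap by 1.10 kb at their ends, were covered by H3K27me3 for 86.7% (Wnt3) and 94.0% (Wnt9b). They share the H3K27me3 peak at chr11:103762096-103779296, 17.2 kb wide with a fold of 3.89, and this peak is the same measurement in both. These 4 ligands, Wnt3, Wnt7a, Wnt8b and Wnt9b, had neither active mark.

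Wnt3a, a canonical ligand used widely to activate the pathway in culture, is the gene of the GC-richest promoter printed above and lies at chr11:59248036-59290751. A 59.8 kb H3K27me3 peak of fold 3.30 covered all of its interval, and H3K4me3 was in peaks of 0.353 and 0.765 kb with folds of 2.81 and 2.75. Wnt9a (chr11:59306849-59333552), 16.1 kb away, had no H3K27me3 within 1 kb, and the nearest such peak was 1.27 kb from it. On Wnt9a lay a 2.61 kb H3K4me3 peak of fold 9.54 and 3 H3K27ac peaks with folds of 2.13 to 2.70. The neighbours thus had different marks on either side of a gap shorter than either gene.

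Another pair of neighbouring ligands also differed. Wnt6 (chr1:74754342-74785322) was covered for 68.9% by 3 H3K27me3 peaks of 9.53, 9.20 and 4.93 kb and had no H3K27ac. Its H3K4me3 peaks had folds of 3.61 and 5.04. Wnt10a (chr1:74792019-74804176), 6.70 kb away, had H3K27ac over 47.9% of its interval with a highest fold of 5.26, and H3K4me3 over 33.9% with a highest fold of 6.67. Both are ligands of the early mammary bud. Wnt10a also had 2 small H3K27me3 peaks, with folds of 1.80 and 1.66 and a highest −log10 q of 2.54.

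Wnt10b, another early mammary ligand, lies 11.7 kb from Wnt1. It had all 3 marks, with H3K27ac over 24.1%, H3K4me3 over 4.68% and H3K27me3 over 21.3% of the interval. Its H3K4me3 fold was 2.02 and its H3K27me3 fold 2.68. The highest −log10 q on Wnt10b was 4.63 for H3K27ac, 2.74 for H3K4me3 and 10.6 for H3K27me3. Neither active mark lay within 1 kb of its start. Wnt10b was the only one of the 19 genes with both H3K4me3 and H3K27me3 in which these marks shared no base.

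**Figure D3:**
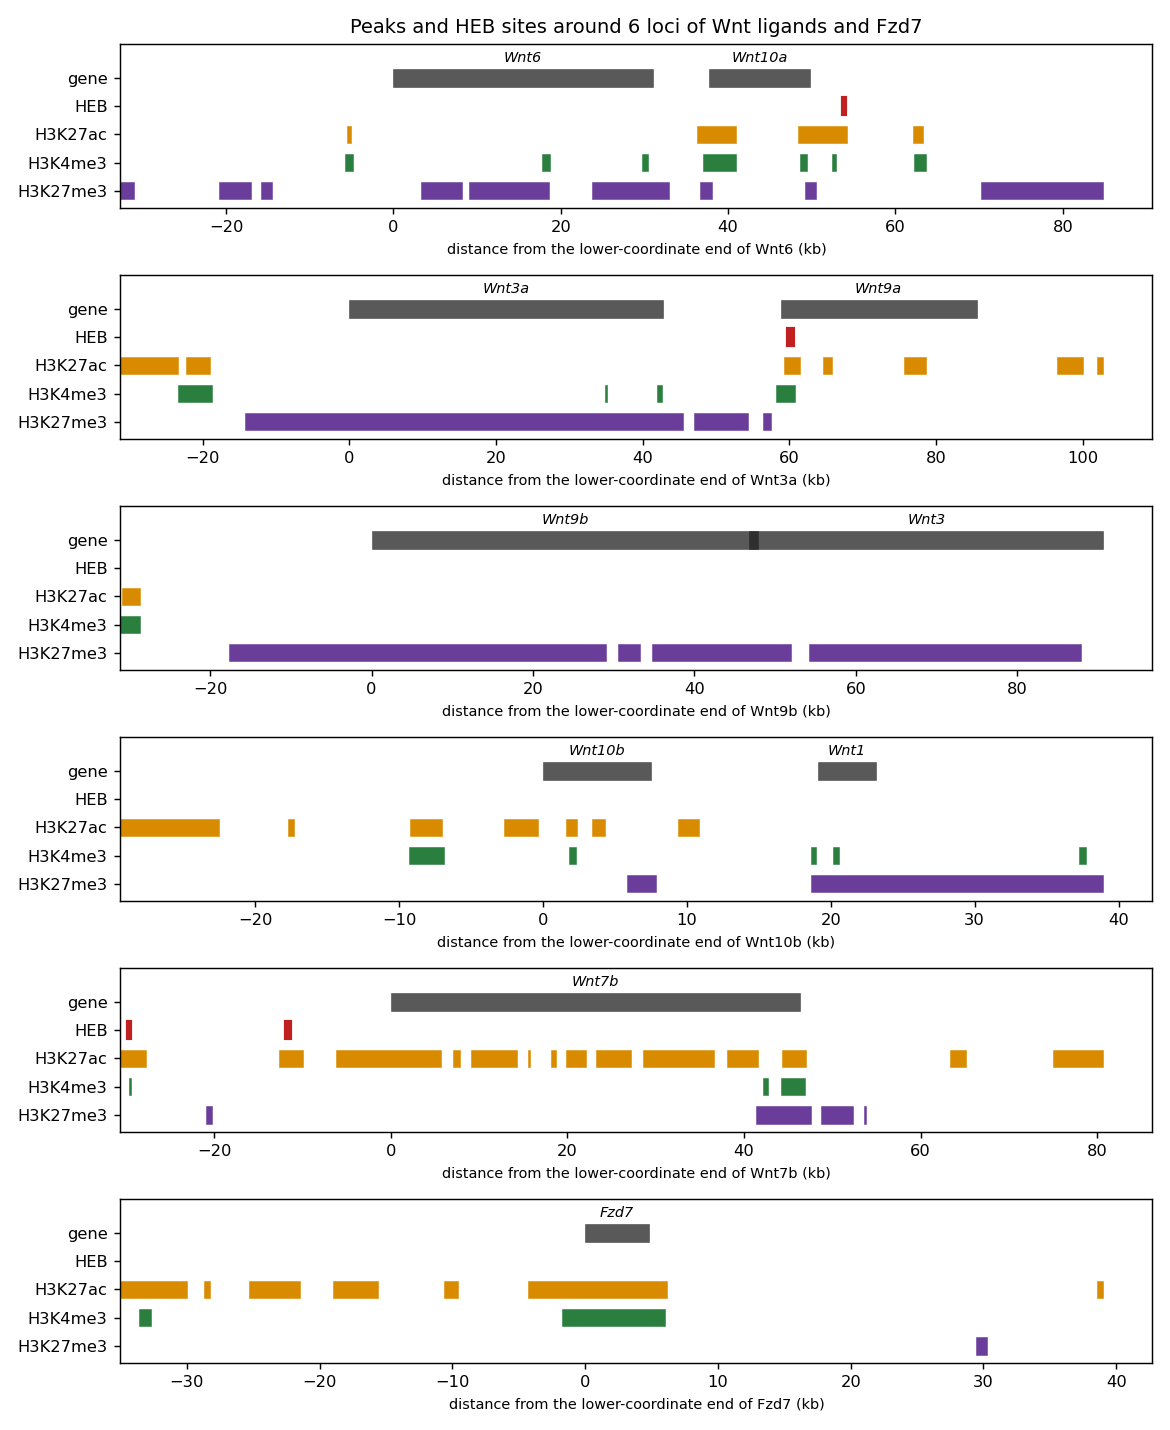
Peaks of the 3 marks and HEB sites around 6 groups of members, with distance in kb on the x axis and a track for each list. In the panel with Wnt3a and Wnt9a, the 59.8 kb H3K27me3 peak spans Wnt3a and ends before Wnt9a, where H3K4me3, H3K27ac and a HEB site lie.

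H3K4me3 and H3K27me3 shared bases in 18 of the 19 members with both marks, namely 2 of 2 receptors, 12 of 13 ligands and 4 of 4 inhibitors, against 65.0% of all protein-coding genes with both. The shared length was 346 to 3631 bp in these 18 genes. H3K27ac and H3K27me3 shared bases in 5 of the 10 members with both, against 33.5% of all protein-coding genes with both. Both marks on the same chromosomes and a mixture of cells cannot be told apart here.

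Among ligands with H3K4me3, H3K27me3 and no H3K27ac, Wnt2 (chr6:17985474-18032772), known for lung development, had 8 H3K27me3 peaks with a highest fold of 3.11 in a 6.97 kb peak at its start, and an H3K4me3 peak of only 0.346 kb and fold 1.97. That is the lowest H3K4me3 fold of the 28 genes with the mark. Wnt11, which is known for non-canonical signalling in cell movement, had an H3K4me3 peak of 2.08 kb and fold 6.70 that overlapped a 10.5 kb H3K27me3 peak of fold 2.91. A second H3K4me3 peak of 0.575 kb and fold 4.81 overlapped the same H3K27me3 peak, and together the marks on Wnt11 shared 2657 bp. Wnt16, a ligand known from bone, had an H3K4me3 peak of 0.985 kb and fold 2.51 and an H3K27me3 peak of 2.29 kb and fold 2.45.

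The 7 ligands with all 3 marks differed in how much of the gene each mark covered. Wnt5a (chr14:28504543-28527448), the main non-canonical ligand and a restraint on ductal growth in the mammary gland, had the widest H3K4me3 peak of any member, 9.39 kb with a fold of 12.1 and a −log10 q of 164. Its H3K27ac peak was 8.05 kb with a fold of 3.67, and none of its 4 H3K27me3 peaks passed a fold of 1.94 or a −log10 q of 3.51. Wnt7b (chr15:85535437-85581821) had 10 H3K27ac peaks over 70.4% of its interval, the widest 11.9 kb, and an H3K4me3 peak of 2.74 kb and fold 15.3. A second H3K4me3 peak on Wnt7b was 0.608 kb wide with a fold of 3.25. A 6.18 kb H3K27me3 peak of fold 2.48 and −log10 q of 8.46 was also on Wnt7b, and it shared 3346 bp with both H3K4me3 peaks together. Of the 7, Wnt5a and Wnt10a had no H3K27me3 peak with a −log10 q of 5 or more, while Wnt7b had one.

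Wnt4 (chr4:137277635-137299501), the ligand downstream of progesterone in mammary side branching, had H3K27ac with a highest fold of 4.16, an H3K4me3 peak of 1.87 kb and fold 2.98, and a 5.91 kb H3K27me3 peak of fold 3.14 at its start. All 1868 bp of that H3K4me3 peak lay within the H3K27me3 peak. Wnt5b (chr6:119432531-119544824), a close relative of Wnt5a, had the highest ligand folds for H3K27ac, 5.47, and for H3K4me3, 25.3. Both of these peaks overlap Fbxl14, a gene nested within Wnt5b. The highest H3K27ac fold on Wnt5b outside Fbxl14 was 4.23, below the 5.26 of Wnt10a. Several starts are listed for Wnt5b. The H3K4me3 peak at the farthest upstream of them had a fold of 3.97 and lay with a 7.80 kb H3K27me3 peak of fold 2.94. These 3.97-fold and 2.94-fold peaks also overlap another protein-coding gene, Gm52875, and cannot be told apart from its chromatin. The peaks of 5.47-fold and 25.3-fold cannot be told apart from the chromatin of Fbxl14. Wnt2b had an H3K4me3 peak of fold 3.61 that lay whole within an H3K27me3 peak of fold 3.02 at its start, and an H3K27ac peak of fold 3.02 at its other end, where the gene overlaps St7l.

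Wnt8a, a ligand of the early embryo, was the only member with none of the marks. Its nearest H3K27me3 peak was 1.37 kb away, its nearest H3K27ac peak 25.8 kb and its nearest H3K4me3 peak 29.8 kb. Like Wnt9a and Fzd9, it had a peak just outside the 1 kb window.

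**Figure D4:**
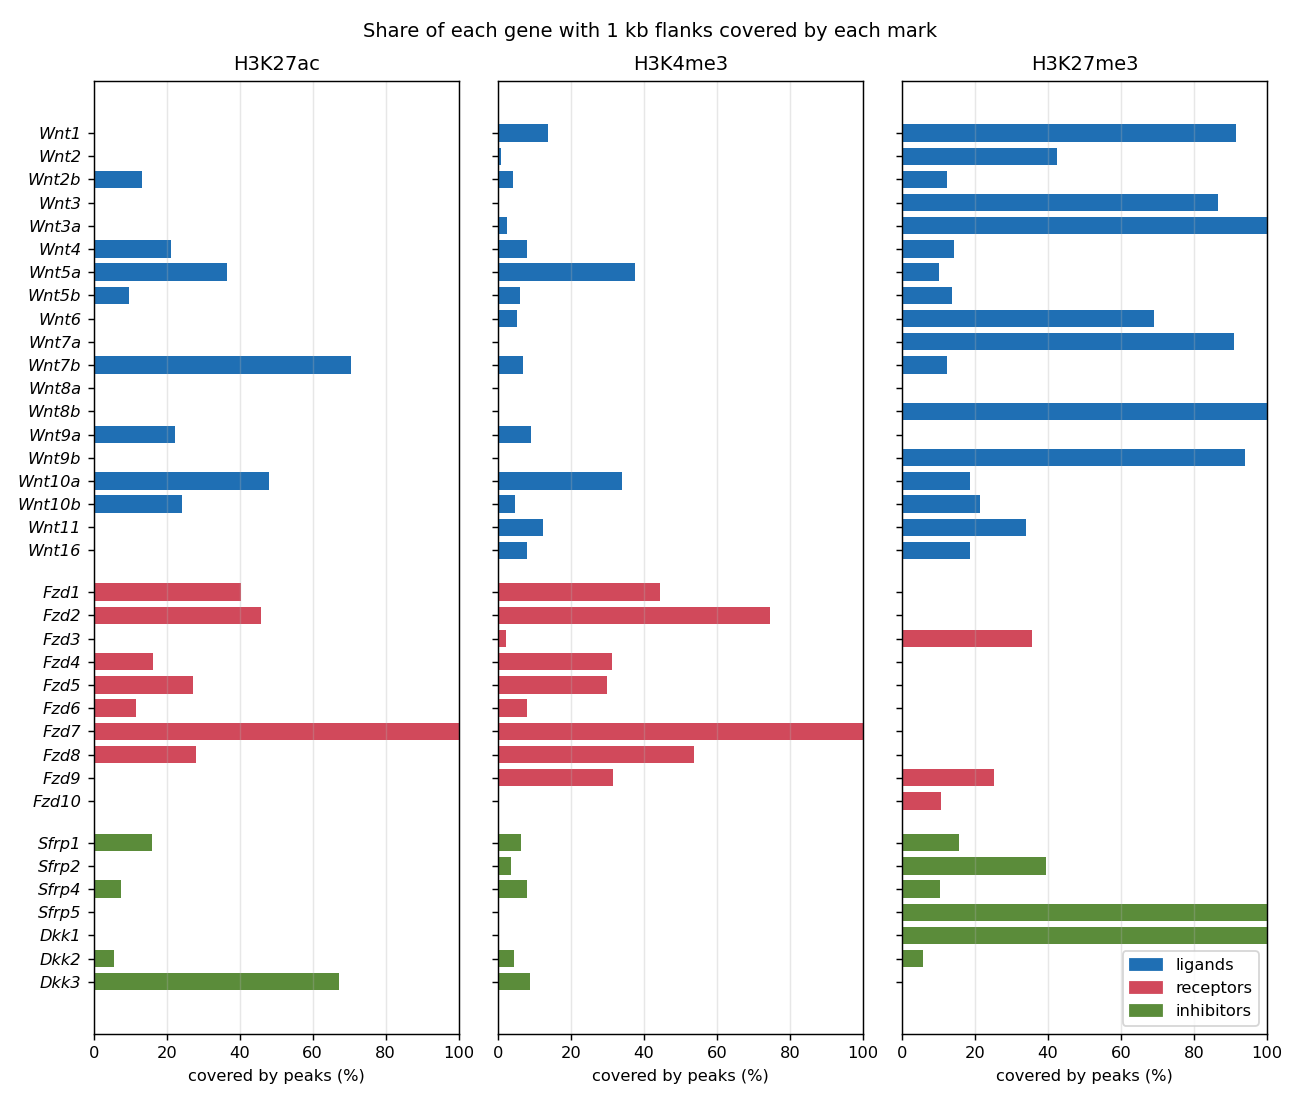
Percent of each of the 36 genes, with 1 kb flanks, covered by H3K27ac, H3K4me3 and H3K27me3, with genes grouped by class. H3K27me3 covered 100% of Wnt3a, Wnt8b, Sfrp5 and Dkk1, and both active marks covered 100% of Fzd7.

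The inhibitors held both extremes. Dkk1 (chr19:30545876-30549496), the classic antagonist of Lrp5 and Lrp6, lay whole within a 13.8 kb H3K27me3 peak of fold 2.98 and −log10 q of 15.9, with no active mark. Sfrp5 lay whole within a 17.2 kb peak of fold 3.57 and −log10 q of 25.6, the widest and the strongest H3K27me3 of the inhibitors. Dkk3 (chr7:112116019-112159482), a divergent member whose action on Wnt signalling is disputed, had no H3K27me3 within 153 kb. A 17.3 kb H3K27ac peak of fold 5.26, the widest H3K27ac peak of the 36 genes, was 1 of 7 that covered 67.2% of Dkk3, and its H3K4me3 peak was 3.96 kb with a fold of 8.37.

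The other inhibitors had H3K4me3 and H3K27me3 together. Sfrp1 had the highest H3K4me3 fold of the inhibitors, 8.92 in a 2.56 kb peak that lay whole within an 8.28 kb H3K27me3 peak of fold 2.52, and H3K27ac of at most 3.00-fold. Dkk2, which can activate or inhibit depending on the co-receptor context, had an H3K4me3 peak of 4.24 kb and fold 5.97 that shared 3631 bp with a 4.38 kb H3K27me3 peak of fold 2.57. Its 6 H3K27ac peaks reached a fold of 2.59. Sfrp2 had no H3K27ac, a 0.385 kb H3K4me3 peak of fold 2.31 and a 9.58 kb H3K27me3 peak of fold 3.14. Sfrp4 had all 3 marks in peaks of under 1 kb, with folds of 2.11 for H3K27ac, 3.85 for H3K4me3 and 2.36 for H3K27me3.

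HEB sites lay within 100 kb of 7 of the 36 genes, namely 5 ligands (Wnt3a, Wnt6, Wnt7b, Wnt9a and Wnt10a), 1 receptor (Fzd7) and 1 inhibitor (Sfrp2). That is 19.4%, against 12.0% of all protein-coding genes. The 7 genes had 8 distinct sites in 11 pairs of site and gene, since 3 sites lay near more than 1 member. All 8 sites lay in H3K27ac peaks, against 87.1% of the 887 HEB sites on the numbered chromosomes, X and Y. H3K4me3 peaks held 3 of the 8, against 21.4% of the 887, and H3K27me3 peaks held none, against 6.65%. For 3 of the 8 a member was the nearest protein-coding gene.

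Those 3 sites were at Wnt9a, Wnt10a and Wnt7b. The site at chr11:59307654-59308689 lay inside Wnt9a near the promoter printed above, under H3K27ac of fold 2.70 and the H3K4me3 peak of fold 9.54, and was 16.9 kb from Wnt3a. The site at chr1:74807912-74808470 was 3.74 kb from Wnt10a and 22.6 kb from Wnt6, in the 5.93 kb H3K27ac peak of fold 5.26 that also reaches Wnt10a. The site at chr15:85523502-85524134 was 11.3 kb from Wnt7b in H3K27ac of fold 5.77. In the first 2 cases the nearer ligand had both active marks, and H3K27me3 covered 100% of Wnt3a and 68.9% of Wnt6. The split was not clean, since Wnt3a and Wnt6 also had H3K4me3. Wnt10a also had H3K27me3, over 18.5% of its interval.

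The other 5 sites were nearest to genes outside the family. A further site 29.4 kb from Wnt7b (chr15:85505612-85506066) was nearest to 7530416G11Rik and had H3K27ac of fold 3.29 and H3K4me3 of fold 2.15. The site at chr11:59384442-59384906 was 50.9 kb from Wnt9a and 93.7 kb from Wnt3a, nearest to Prss38, and that at chr11:59412311-59412614 was 78.8 kb from Wnt9a, in Snap47. H3K27ac had a fold of 2.23 at the Prss38 site and 5.79 at the Snap47 site. The site 79.7 kb from Fzd7 (chr1:59566630-59567195) lay in Gm973 under H3K27ac of fold 5.80. The site 66.9 kb from Sfrp2 (chr3:83841237-83841707) lay in Tlr2 under H3K27ac of fold 6.06 and H3K4me3 of fold 24.5. Beyond the 100 kb limit, the next nearest sites were 157 kb from Dkk3, 180 kb from Sfrp5 and 199 kb from Wnt4. Within 10 kb, 2 ligands had a site, and no receptor or inhibitor did, against 2.86% of all protein-coding genes.

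A list of 38 further genes of the pathway was counted in the same way. H3K27ac lay on 27 of them, against 63.2% of all protein-coding genes, H3K4me3 on 32, against 61.2%, and H3K27me3 on 18, against 37.5%. A HEB site lay within 100 kb of 2 of the 38, against 12.0% of all. All 8 cytoplasmic components, such as the Dvl adaptors, Gsk3b and Ctnnb1 (β-catenin), had both active marks, and 1 of the 8 had H3K27me3. Of the 8 co-receptors and other receptors, 7 had H3K27ac, 8 had H3K4me3 and 3 had H3K27me3. Among secreted proteins, H3K27me3 lay on all 4 R-spondins, which are secreted enhancers of the pathway, and on 5 of 8 other secreted inhibitors, while H3K27ac lay on 1 R-spondin and 2 of these inhibitors. Both secretion genes, Porcn and Wls, had both active marks. H3K27me3 lay on 2 of 4 genes of receptor turnover or Dkk receptors and on 2 of 4 nuclear factors.

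HEB sites lay inside Wls, the carrier that takes Wnt ligands to the cell surface, and inside Tcf7l1, a mainly repressive Tcf factor, which had 2 sites within 100 kb. The widest H3K27me3 peak of the list was on Rspo4, at 72.4 kb, and the highest H3K27me3 fold on Rspo4 was 2.51. The widest H3K27ac peak was on Dvl2, 11.7 kb with a fold of 5.60, and the widest H3K4me3 peak on Gsk3b, 7.14 kb with a fold of 25.5. Whether these secreted and cytoplasmic genes differ was not tested.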

How the data were processed

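HEB, H3K27ac, H3K4me3 and H3K27me3 chromatin immunoprecipitation was sequenced in 4 replicates each, with 4 input samples, grouped by the labels' titles. The deposited files are 4 combined lists in mm10, and SAMtools was used, per the submitters' processing notes. Not given in the sources used here were aligner, peak caller, control and how replicates of the histone marks were merged. Every peak has a deposited fold enrichment, a ratio over control, and a deposited −log10 q-value, both as the authors computed them. The deposited HEB list is named a replicate consensus with a minimum overlap of 2, without further detail, and holds positions only. Depth per sample is unknown.

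Peaks were joined to protein-coding gene positions of RefSeq assembly GRCm38.p6, on which mm10 is based, with Python 3.11.15, pandas 2.3.3 and NumPy 2.4.6. A gene carried a mark at an overlap of at least 1 bp with the gene or 1 kb either side, and HEB distances ran to the gene interval. The overlap code was tested on simulated intervals. Exons, introns and UTRs were not used here. Shares, medians and percent covered are descriptions beside all protein-coding genes, and no test was run.

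Values in full were given for members with a HEB site within 100 kb, those with the widest or highest-fold peak of a class and mark, those with H3K4me3 and H3K27me3 together, and those with no mark. Other pathway genes were named for a HEB site or the widest peak of a mark. Further members were named so that all 36 are accounted for. The members and lists were chosen with earlier results of these data known. Alternatives changed the window, the peak threshold, the overlap, the HEB distance and its assignment.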

Additional observations from a re-analysis of the deposited data

How the results depend on the processing

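Of 130 values recomputed under 12 alternatives, 108 stayed within 1.5 times. With only peaks of −log10 q of 5 or more, receptors with H3K27me3 numbered 1 in place of 3, and median H3K27ac coverage of inhibitors was 0%. With only peaks above the list's median fold, H3K4me3 lay on 2 ligands in place of 14 and on 0 inhibitors in place of 5. H3K4me3 with H3K27me3 then lay on 2 ligands in place of 13 and on 0 inhibitors in place of 4. Of these 2 ligands, Wnt5b kept H3K4me3 only through a peak that overlaps Fbxl14. Within 1 kb of a start, H3K27ac lay on 2 of the 15 ligands with a promoter entry in place of 5. HEB sites lay within 10 kb of 2 ligands, 0 receptors and 0 inhibitors, within 50 kb of 0 receptors and 0 inhibitors, and as nearest gene at 3 ligands, 0 receptors and 0 inhibitors, in place of 5, 1 and 1. At gene ends alone, median coverage by H3K4me3 was 48.2% for receptors, 17.8% for ligands and 14.4% for inhibitors. There, median H3K27me3 coverage was 50% for ligands and 50% for inhibitors, and median H3K27ac coverage was 38.3% for receptors and 0% for inhibitors. The causes were not tested. An alternative added after seeing the data left out the 3 members that overlap a protein-coding gene outside the 36 (Wnt2b, Wnt5b and Fzd4). None of its 13 values, which are among the 130, moved by over 1.5 times. So few genes were left out that none of the 13 could have passed that limit. The part of overlapping genes was therefore not tested.

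Leaving out replicates was not possible because each list combines them. No paired analysis was possible because the lists carry no replicate numbers and no test was run. The missing depth and replicate error limit every value.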
